A study of Mus musculus with 16 samples.

Results

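Expression of 36 genes of DNA damage signalling and repair was followed in MPI-2 cells, which are alveolar-like macrophages of mouse origin kept growing with the cytokine GM-CSF. The genes were taken by symbol from a list, and all 36 were found among the 55359 genes of the count files and among the 17190 genes that passed the filter on low counts. The wild-type cells had met Mycobacterium abscessus, a bacterium that can live inside macrophages, for 5 days or for 1 day, or had stayed uninfected until day 5 or day 1, with 4 RNA-seq libraries in each of these 4 groups. All groups were grown in the same serum-containing medium with penicillin, streptomycin and GM-CSF and were split before confluence, per the labels' protocols. The replicates are labelled as biological but come from 1 cell line, so the spread between them is that between cultures of a single line. The bacterial strain and dose, and how many cells carried bacteria, are not given in the sources used here, and each value is an average over a whole culture. By its title, the series asks about senescence of cells that stay infected over time.

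Cells repair broken DNA by routes that differ in when they can act. Homologous recombination copies the sister chromatid, and the Fanconi anaemia pathway unhooks crosslinks that stop replication forks, so both work mainly in S and G2 phase and many of their genes are transcribed with the cell cycle. End joining ligates broken ends directly and operates throughout the cycle, also in resting cells such as most tissue macrophages. The kinases ATM and ATR sense breaks and single-stranded DNA and act through the effector kinases CHK2 and CHK1 to hold the cycle. The 36 genes were therefore described as 19 genes of S-phase-linked repair, 9 of damage signalling, 5 of end joining and 3 of single-strand break and excision repair.

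Total counts per library lay between 46154875 and 81995629, and the lowest count of any of the 36 genes in any library was 102. All 18 macrophage markers reached 1 CPM (a count scaled to library size) in at least 1 library of each group, with a summed level of 19700 to 27300 CPM in exposed day 5, 17000 to 20000 in exposed day 1, 22700 to 30200 in uninfected day 5 and 18800 to 20600 in uninfected day 1 libraries. The 7 alveolar epithelial markers summed to 32.0 to 43.6 CPM in exposed day 5, 34.2 to 35.2 in exposed day 1, 40.8 to 48.9 in uninfected day 5 and 29.9 to 31.5 in uninfected day 1 libraries, with Sftpa1 at 0 counts in all groups, and 6 lymphocyte markers summed to at most 0.466 CPM in any library. The 5 neutrophil markers summed to 407 to 880 CPM in exposed day 5, 756 to 1040 in exposed day 1, 439 to 605 in uninfected day 5 and 294 to 383 in uninfected day 1 libraries, and the 5 fibroblast and endothelial markers to between 15.6 and 25.1 CPM in any library. Single markers moved more than these sums at day 5, with 12 of 18 macrophage markers higher and 3 lower (Csf1r 3.02 ± 0.13, Itgax 2.27 ± 0.11 and Mrc1 -1.88 ± 0.15 as log2 fold changes ± SE, exposed over uninfected). Neutrophil Camp had 6.24 ± 0.39, Ly6g 1.98 ± 0.56, Mpo -2.35 ± 0.38 and Elane -3.09 ± 0.64, and epithelial Scgb1a1 -2.01 ± 0.18 and Hopx -0.27 ± 0.09, all called. Endothelial Cdh5 (3.02 ± 0.39) and Pecam1 (0.68 ± 0.15) and fibroblast Pdgfra (-0.89 ± 0.09) and Col1a1 (-1.12 ± 0.43) were also called. In exposed day 5 libraries only 3 of 5 neutrophil, 2 of 7 epithelial and 3 of 5 fibroblast and endothelial markers reached 1 CPM. Some called markers thus lay near the floor. The part of cells with these markers, or of changes in the macrophages themselves, in the results was not tested. Within the exposed day 5 group the libraries were unequal, with replicates 1 and 3 above replicates 2 and 4 for 27 of the 36 genes. Values of single libraries are therefore given throughout. How many of all genes had this order is not given here. Over all genes with enough reads, replicates 2 and 4 (75.7) and replicates 1 and 3 (113) differed least, by chi-square per degree of freedom. The other pairs had 140 to 278.

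At day 5, 31 of the 36 genes fell and 3 rose in exposed against uninfected cells. Among all genes tested, 28.4% were called lower and 28.6% higher in this comparison (edgeR's quasi-likelihood test, adjusted p under 0.05). The median log2 fold change of the 36 genes was -1.24, beside 0.02 for all genes, and in 29 of them every exposed library lay below every uninfected library, as it did in 24.2% of all genes. The 3 genes called higher were Trp53bp1, Lig4 and Ercc1, and Atm and Xrcc4 were not called. The 3 higher calls were lost when libraries were scaled by their totals alone, which left 0 higher and 32 lower, and 1 higher gene was left without uninfected day 5 replicate 3 or 4. Rises and falls are log2 fold changes ± SE throughout, and CPM include the scaling of the libraries by TMM. In bulk RNA, fewer cells that express a gene and less of its RNA per cell cannot be told apart.

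At day 1, 16 of the 36 genes fell and 0 rose, where 10.5% of all genes were called lower and 13.4% higher. The median log2 fold change was -0.45 beside 0.03 for all genes, and all 36 values were negative, from -0.69 for Brca1 to -0.06 for Trp53bp1. In 29 genes every exposed library lay below every uninfected one, against 19.7% of all genes. At an unadjusted p under 0.05 edgeR had 27 genes lower and 0 higher, and DESeq2 called 20 lower and 0 higher. How many of all genes passed at the unadjusted p, by DESeq2 or in the fits below is not given here. The 10.5% is therefore no baseline for these counts. The count at day 1 depended on the libraries in the fit. Fitted on the 8 day 1 libraries alone, 30 of the 36 genes were called lower, and with single libraries left out the number lay between 9 (without exposed day 1 replicate 4; 10 without uninfected day 1 replicate 4) and 25 (without exposed day 5 replicate 2).

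**Figure D1:**
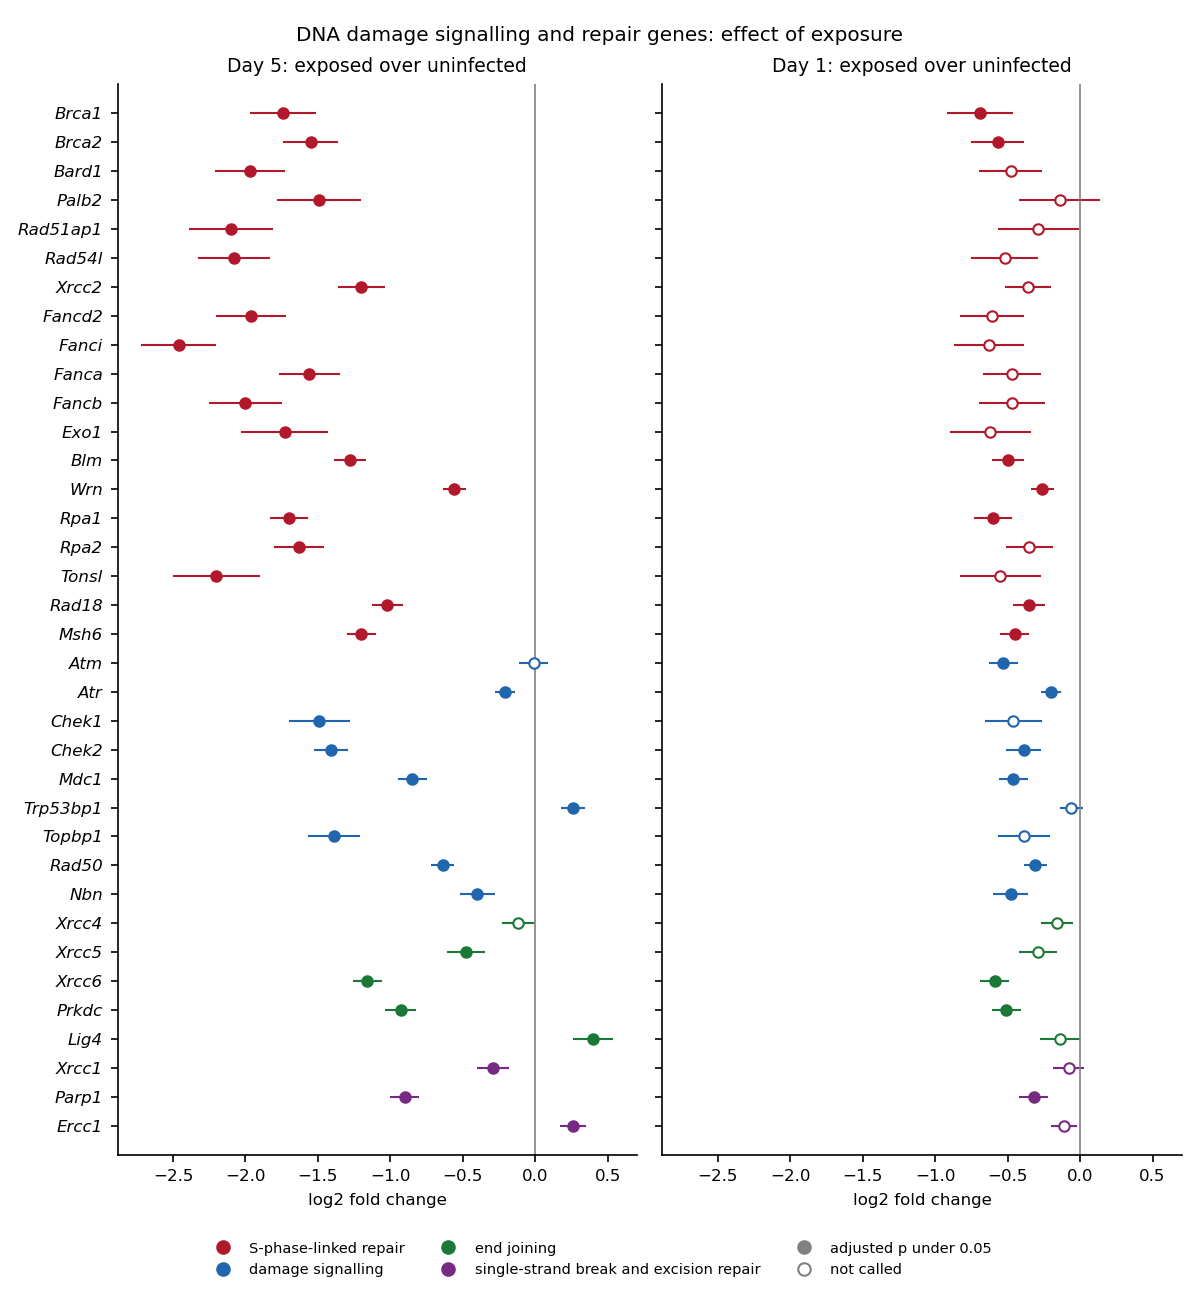
Log2 fold change of each of the 36 genes, exposed over uninfected, at day 5 (left) and day 1 (right), with bars of 1 standard error from the fit. Colours mark the class and filled points an adjusted p under 0.05; at day 5 the S-phase-linked genes lie between -2.46 and -0.56, while Trp53bp1, Lig4 and Ercc1 lie above 0.

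Promoter sequences were available for 28 of the 36 genes, from RefSeq on GRCm38.p6, an older mouse assembly than the GRCm39 of the count files. They are shown because many of these genes moved together. The window from 250 bases before to 50 after the annotated start was searched on both strands for letters that E2F factors, the main regulators of S-phase genes, are known to bind: TTTCCCGC, TTTCGCGC, TTTGCCGC or TTTGGCGC. Of the 28 genes, 7 (25.0%) held a match, as did 704 of 27025 genes in the whole table (2.6%), and no match overlapped a match of the motifs named next. By class, matches were in 3 of 14 S-phase-linked genes (21.4%), 3 of 7 damage signalling genes (42.9%) and 1 of 4 end joining genes. The classes are too small to compare these shares, and no difference between them was tested. The CHR letters TTTGAA, an element of G2 and mitosis genes, were found in 1 of the 28 genes, Bard1, and in 20.2% of all genes, and the CCAAT letters in 16 of the 28 genes and in 41.1% of all genes. By class, CCAAT letters were in 10 of 14 S-phase-linked genes (71.4%), 3 of 7 damage signalling genes, 2 of 4 end joining genes and 1 of 3 of the remaining class. A match describes the letters only, and the window says nothing of binding in these cells. The 7 matches are given below in the direction of transcription, with 10 flanking bases on each side and the matched letters in capitals. All 7 genes fell at day 5, but so did 31 of the 36 genes as a whole. Their log2 fold changes lay between -1.97 (Bard1) and -0.85 (Mdc1). The 7 belong to S-phase-linked repair (Bard1, Brca2, Msh6), damage signalling (Chek2, Topbp1, Mdc1) and end joining (Xrcc6). Whether the letters go with the fall was not tested.
Bard1, chr1:71103164-71103191, minus strand: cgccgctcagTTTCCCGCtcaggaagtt
Chek2, chr5:110839821-110839848, plus strand: gggattagccGCGGGAAAccaagacgtc
Brca2, chr5:150522443-150522470, plus strand: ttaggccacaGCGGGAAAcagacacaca
Topbp1, chr9:103305188-103305215, plus strand: cgctcggttgGCGCGAAAgtcggttccc
Xrcc6, chr15:82016313-82016340, plus strand: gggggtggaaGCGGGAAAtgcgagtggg
Mdc1, chr17:35841472-35841499, plus strand: cttcagcctgTTTCCCGCcggtagccgc
Msh6, chr17:87975055-87975082, plus strand: tcctcccgacTTTCCCGCcagcggcggc

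All 7 genes of homologous recombination fell at day 5, with a median log2 fold change of -1.74. Brca1, the ubiquitin ligase subunit that steers breaks towards recombination, had 31.9, 11.6, 24.7 and 12.3 CPM in the 4 exposed day 5 libraries, against 71.1, 73.9, 65.3 and 59.1 CPM in uninfected day 5 libraries. Its groups did not overlap, and replicates 2 and 4 of the exposed cells were the lowest. The log2 fold change was -1.74 ± 0.23 (SE, n = 4 libraries in each group; adjusted p = 7.16e-06). At day 1 Brca1 had 58.3, 59.1, 57.6 and 56.1 CPM in exposed cells and 91.4, 91.6, 93.3 and 96.6 CPM in uninfected cells, a log2 fold change of -0.69 ± 0.23 (adjusted p = 0.0353), a call lost without any 1 of the 8 day 1 libraries. Exposed day 1 libraries were thus even among themselves, and all lay below the uninfected ones.

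Bard1, the obligate partner of BRCA1, averaged 4.73 ± 2.29 CPM in exposed day 5 cells and 18.5 ± 2.08 CPM in uninfected day 5 cells (SD, n = 4 each), a log2 fold change of -1.97 ± 0.24. Brca2, a core mediator of recombination, averaged 11.0 ± 4.28 CPM in exposed and 32.5 ± 3.31 CPM in uninfected cells at that day, a log2 fold change of -1.55 ± 0.19. Palb2, which joins BRCA1 to BRCA2, was at 6.26, 1.95, 7.52 and 2.57 CPM in exposed day 5 libraries and between 11.5 and 14 CPM in uninfected day 5 libraries. It was also the gene of this group that stood nearest to 0 at day 1, with -0.14 ± 0.28 and overlapping libraries (adjusted p = 0.765).

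Rad51ap1, an accessory factor of strand invasion, had the deepest fall of the group. It stood at 25.4, 8.27, 24.2 and 7.61 CPM in exposed day 5 libraries, against 72.5, 71.1, 70.9 and 66.8 CPM in uninfected day 5 libraries. The uninfected libraries were close together, while exposed replicates 1 and 3 held about as much as each other and clearly more than replicates 2 and 4. The log2 fold change was -2.10 ± 0.29 (adjusted p = 1.04e-05). At day 1 Rad51ap1 averaged 69.0 ± 1.07 CPM in exposed and 84.4 ± 3.13 CPM in uninfected cells; no exposed library overlapped an uninfected one, but the change of -0.29 ± 0.28 did not pass the test (adjusted p = 0.481). The SE came from the fit over all groups, in which the exposed day 5 libraries spread most. The 250 bases before its annotated start (chr6:126939588-126939837 on the minus strand) are given because, of the S-phase-linked genes with a promoter entry, it had the deepest fall after Fanci. Tonsl fell further and had no entry. ATTGG, the reverse complement of CCAAT, is in capitals.
Rad51ap1: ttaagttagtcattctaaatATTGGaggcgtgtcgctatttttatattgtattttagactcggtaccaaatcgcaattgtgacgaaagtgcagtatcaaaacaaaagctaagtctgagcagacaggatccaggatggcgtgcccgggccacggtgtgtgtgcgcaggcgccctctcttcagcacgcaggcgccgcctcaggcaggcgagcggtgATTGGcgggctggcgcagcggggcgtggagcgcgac

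Rad54l, a motor protein that promotes strand exchange, averaged 10.6 ± 5.39 CPM in exposed day 5 and 44.9 ± 4.24 CPM in uninfected day 5 cells (SD, n = 4 each), a log2 fold change of -2.08 ± 0.25. Xrcc2, which supports early steps of recombination, fell least of the group, with a log2 fold change of -1.20 ± 0.16. Its exposed day 5 libraries held 6.67, 3.52, 3.79 and 3.54 CPM, against 11.0, 9.37, 9.82 and 10.2 CPM in uninfected day 5 libraries. Replicate 1 alone was higher than the other exposed libraries here. At day 1, Brca1 and Brca2 were the 2 genes of homologous recombination that passed edgeR's test. Brca2 lost that call without any 1 of 7 day 1 libraries, and both genes lost it with library totals alone (adjusted p = 0.0598 and 0.0634) and with every gene with at least 1 read kept (0.102 and 0.0755).

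All 4 Fanconi anaemia genes fell at day 5, and their median log2 fold change of -1.98 was the most negative of the 8 functional groups. Fanci, which with FANCD2 forms the clamp that is ubiquitinated at crosslinks, fell most of all 36 genes. It stood at 8.14, 2.62, 5.80 and 2.60 CPM in exposed day 5 libraries, against 29.0, 27.3, 27.5 and 22.1 CPM in uninfected day 5 libraries, and at 24.1, 25.1, 23.4 and 21.3 CPM in exposed day 1 libraries, against 35.8, 36.4, 37.2 and 36.5 CPM in uninfected day 1 libraries. The groups did not overlap on either day. The log2 fold change was -2.46 ± 0.26 at day 5 (adjusted p = 5.67e-07) and -0.63 ± 0.24 at day 1 (adjusted p = 0.0697). The 250 bases before its start (chr7:79392088-79392337 on the plus strand) held none of the searched letters.
Fanci: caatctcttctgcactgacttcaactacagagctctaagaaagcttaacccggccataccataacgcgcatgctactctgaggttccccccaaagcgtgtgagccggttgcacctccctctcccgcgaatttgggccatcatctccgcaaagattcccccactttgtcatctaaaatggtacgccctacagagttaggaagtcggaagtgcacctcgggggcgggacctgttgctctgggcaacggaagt

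Fancd2 averaged 9.98 ± 4.89 CPM in exposed day 5 and 38.8 ± 3.22 CPM in uninfected day 5 cells, a log2 fold change of -1.96 ± 0.24. Fanca and Fancb are subunits of the core complex that carries out that ubiquitination. Fancb fell by 2.00 ± 0.25 to 3.18 ± 1.63 CPM in exposed cells, against 12.8 ± 1.06 CPM in uninfected cells, and Fanca fell by 1.56 ± 0.21 to 12.4 ± 5.27 CPM, against 36.8 ± 2.97 CPM. At day 1 the 4 genes had log2 fold changes from -0.63 to -0.47 with no overlap between groups, and none passed edgeR's test over all 16 libraries (adjusted p between 0.0607 and 0.160). DESeq2 called Fancd2 (adjusted p = 0.0167), Fanci (0.0231) and Fanca (0.0389), and edgeR on the day 1 libraries alone called all 4 (at most 0.000107).

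Exo1, Blm and Wrn, which resect and unwind DNA ends, all fell at day 5, but unequally. Exo1, an exonuclease of long-range resection, had 9.76, 2.74, 10.2 and 3.40 CPM in exposed day 5 libraries, against 21.9, 22.6, 21.2 and 21.2 CPM in uninfected day 5 libraries, a log2 fold change of -1.73 ± 0.30. Blm, a helicase that dissolves recombination intermediates, averaged 18.5 ± 4.14 CPM in exposed and 44.7 ± 2.86 CPM in uninfected cells, a change of -1.28 ± 0.11. Wrn, its relative with helicase and exonuclease activity, was the least changed S-phase-linked gene. It had 15.3, 17.3, 14.2 and 15.4 CPM in exposed day 5 and 22.6, 22.4, 22.7 and 24.0 CPM in uninfected day 5 libraries, and replicates 2 and 4 were not below replicates 1 and 3 (log2 fold change -0.56 ± 0.08, adjusted p = 6.20e-06). Blm (-0.50 ± 0.11) and Wrn (-0.26 ± 0.08) also fell at day 1, and the call of Wrn was lost without any 1 of 5 single libraries.

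The 5 genes that protect forks and single-stranded DNA or act behind the fork all fell at day 5, with a median of -1.63. Rpa1, the large subunit of the protein that coats single-stranded DNA, was the most abundant of the 36 genes in uninfected cells per base of exon. It stood at 57.4, 34.9, 48.9 and 33.1 CPM in exposed day 5 libraries, against 145, 140, 149 and 132 CPM in uninfected day 5 libraries, and at 128, 122, 118 and 101 CPM in exposed day 1 libraries, against 177, 188, 173 and 173 CPM in uninfected day 1 libraries. No exposed library reached an uninfected library of its day. The log2 fold change was -1.70 ± 0.13 at day 5 (adjusted p = 3.18e-09) and -0.60 ± 0.13 at day 1 (adjusted p = 0.00286).

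Rpa2, the middle subunit, fell by 1.63 ± 0.17 at day 5 and was not called at day 1 (-0.35 ± 0.16, adjusted p = 0.127). Tonsl, which recognises newly replicated chromatin, averaged 8.57 ± 5.13 CPM in exposed day 5 and 39.4 ± 4.59 CPM in uninfected day 5 cells. At 13.4, 3.49, 12.5 and 4.84 CPM it was among the genes whose exposed libraries were furthest apart, and its log2 fold change was -2.20 ± 0.30. Rad18, the ligase that marks the sliding clamp for translesion synthesis, had 25.3, 26.1, 25.5 and 16.8 CPM in exposed day 5 libraries, against 45.6, 46.5, 48.1 and 49.8 CPM in uninfected day 5 libraries. Only replicate 4 was set apart there, and the change was -1.02 ± 0.11. Msh6, a mismatch recognition factor, fell by 1.20 ± 0.10 at day 5 and fell by 0.45 ± 0.10 at day 1.

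**Figure D2:**
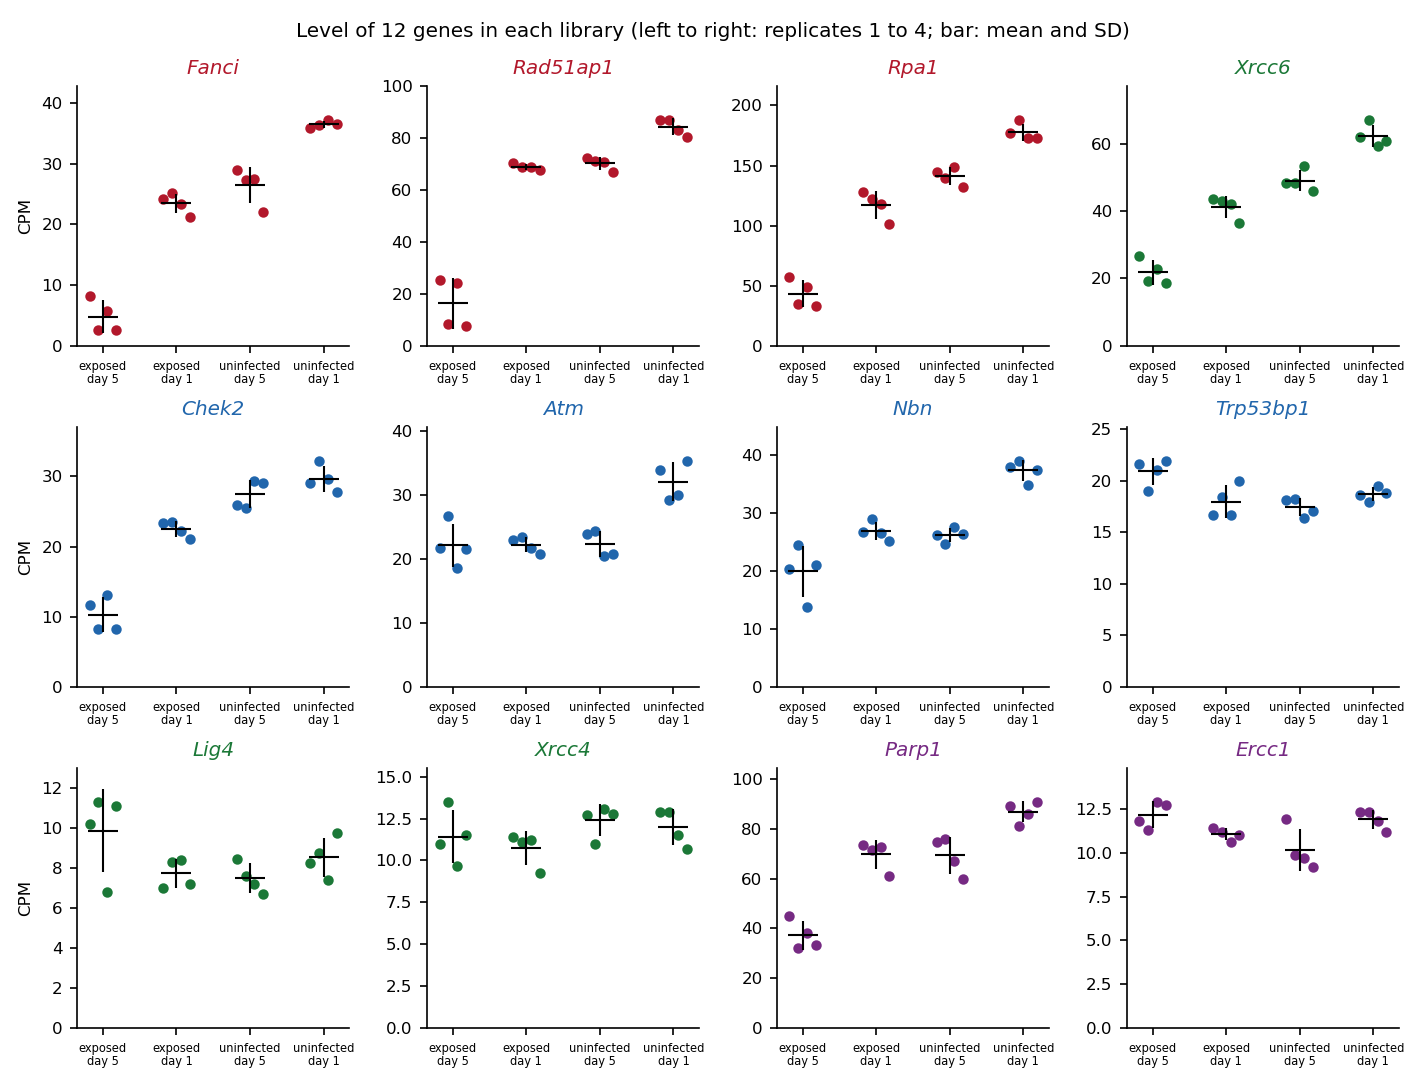
Level in CPM of 12 genes in every library, with points for replicates 1 to 4 from left to right and a bar for the mean and SD of each group; every axis starts at 0. The exposed day 5 points of Fanci, Rad51ap1, Rpa1, Xrcc6, Chek2, Nbn and Parp1 lie below all other points, and those of Atm, Xrcc4, Lig4, Trp53bp1 and Ercc1 do not.

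The 4 damage kinases split by tier at day 5. The effector kinases fell: Chek1, the target of ATR that holds S phase and mitotic entry, had 12.4, 4.46, 10.4 and 7.09 CPM in exposed day 5 libraries, against 25.2, 23.6, 25.9 and 21.9 CPM in uninfected day 5 libraries (log2 fold change -1.49 ± 0.21, adjusted p = 9.33e-06). Chek2, the target of ATM, had 11.6, 8.27, 13.1 and 8.22 CPM in exposed day 5 and 25.9, 25.5, 29.3 and 29.0 CPM in uninfected day 5 libraries (log2 fold change -1.41 ± 0.12, adjusted p = 1.08e-08). Neither gene overlapped between groups. Values of the apical kinases were nearer to 0. Atr, which is recruited to single-stranded DNA, averaged 24.4 ± 0.961 CPM in exposed and 28.1 ± 0.526 CPM in uninfected cells (log2 fold change -0.21 ± 0.07, adjusted p = 0.0112), a call that was lost on day 5 libraries alone (adjusted p = 0.0567) and with every gene with at least 1 read kept (0.110).

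Atm, which is activated by double-strand breaks, had 21.7, 26.7, 18.6 and 21.6 CPM in exposed day 5 libraries, against 23.9, 24.3, 20.5 and 20.7 CPM in uninfected day 5 libraries. The libraries overlapped fully, and the log2 fold change was -0.01 ± 0.10 (adjusted p = 0.932), with a sign that turned with the scaling. At day 1, by contrast, Atm stood at 23.0, 23.4, 21.7 and 20.8 CPM in exposed cells, below each of the 33.9, 29.2, 29.9 and 35.3 CPM of uninfected cells, a change of -0.53 ± 0.10 (adjusted p = 0.00100). The exposed level was thus much the same on both days, and it was the uninfected level that was lower at day 5 than at day 1, with a log2 change of -0.52 ± 0.10 (adjusted p = 0.00142). Atr (-0.20 ± 0.07) and Chek2 (-0.39 ± 0.12) also fell at day 1, although Atr lost the call without any 1 of 6 single libraries, with library totals alone (adjusted p = 0.0558) and with every gene with at least 1 read kept (0.122), and Chek2 lost it without any 1 of 3. Chek1 had -0.46 ± 0.20, which did not pass edgeR's test (adjusted p = 0.104) but passed DESeq2's (0.0455) and edgeR's on the day 1 libraries alone (6.09e-05).

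Of the 5 sensors and mediators, 4 fell and 1 rose at day 5. Topbp1, the activator of ATR, had 95.3, 41.6, 79.3 and 49.0 CPM in exposed day 5 libraries, against 185, 185, 167 and 159 CPM in uninfected day 5 libraries (log2 fold change -1.39 ± 0.18). Mdc1, the scaffold on phosphorylated histone at breaks, averaged 27.9 ± 4.66 CPM in exposed and 50.3 ± 4.52 CPM in uninfected cells (log2 fold change -0.85 ± 0.10). Rad50 and Nbn encode subunits of the complex that tethers broken ends and activates ATM. Rad50 fell by 0.64 ± 0.08 at day 5 and fell by 0.31 ± 0.08 at day 1. Nbn fell by about the same amount on both days, with -0.40 ± 0.12 at day 5 and -0.48 ± 0.12 at day 1. Its 20.3, 24.4, 13.8 and 21 CPM in exposed day 5 libraries put replicate 3, not replicates 2 and 4, lowest, against 26.2, 24.6, 27.6 and 26.3 CPM in uninfected day 5 libraries.

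Trp53bp1, which restrains resection and favours end joining over recombination, rose at day 5. It had 21.6, 19, 21 and 21.9 CPM in exposed day 5 libraries, against 18.1, 18.2, 16.4 and 17 CPM in uninfected day 5 libraries, with no overlap. The log2 fold change was 0.26 ± 0.08 (adjusted p = 0.00788), and it was -0.06 ± 0.08 at day 1 (adjusted p = 0.640). The call did not hold when libraries were scaled by their totals alone (adjusted p = 0.134). The 250 bases before its start (chr2:121271408-121271657 on the minus strand) are given as those of 1 of the 2 genes outside S-phase-linked repair with the most positive change, and they held none of the searched letters.
Trp53bp1: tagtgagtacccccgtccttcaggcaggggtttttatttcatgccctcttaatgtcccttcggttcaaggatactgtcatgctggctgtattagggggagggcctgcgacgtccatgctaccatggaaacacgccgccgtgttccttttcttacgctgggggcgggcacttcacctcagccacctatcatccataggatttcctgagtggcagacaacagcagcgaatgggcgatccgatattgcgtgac

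The ratio of Brca1 to Trp53bp1 within a library does not depend on how libraries are scaled. It was 1.47, 0.611, 1.17 and 0.563 in exposed day 5 libraries, between 2.80 and 3.48 in exposed day 1 libraries, between 3.48 and 4.06 in uninfected day 5 libraries and between 4.80 and 5.14 in uninfected day 1 libraries. The 2 effects thus left every exposed day 5 library below every other library. The ratio of Chek2 to Atm likewise was 0.534, 0.310, 0.704 and 0.380 in exposed day 5 libraries and 1.08, 1.05, 1.43 and 1.40 in uninfected day 5 libraries, but at day 1 it was between 1.00 and 1.02 in exposed and between 0.788 and 1.10 in uninfected libraries, which overlap. These pairs were chosen after their values had been seen, so no test is given.

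End joining was mixed: 3 of its 5 genes fell, 1 rose and 1 was not called at day 5, with a median of -0.48. Xrcc6 and Xrcc5 encode the 2 subunits of Ku, the ring that caps broken ends. Xrcc6 had 26.6, 19.3, 22.9 and 18.6 CPM in exposed day 5 libraries, against 48.4, 48.2, 53.4 and 45.9 CPM in uninfected day 5 libraries (log2 fold change -1.16 ± 0.10, adjusted p = 8.85e-09). Xrcc5 had 12.4, 8.50, 12.2 and 8.93 CPM in exposed day 5 and 15.8, 15.7, 15.6 and 11.7 CPM in uninfected day 5 libraries, where replicate 4 overlapped the exposed cells (log2 fold change -0.48 ± 0.13, adjusted p = 0.00421). The ratio of Xrcc6 to Xrcc5, also chosen after seeing the values, averaged 2.09 ± 0.164 in exposed day 5, 3.05 ± 0.249 in exposed day 1, 3.38 ± 0.408 in uninfected day 5 and 3.73 ± 0.132 in uninfected day 1 cells (SD, n = 4 each), and exposed day 5 libraries were lower than all others.

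Prkdc, the catalytic subunit of the kinase that Ku recruits, averaged 11.4 ± 2.15 CPM in exposed day 5 and 21.6 ± 0.825 CPM in uninfected day 5 cells (log2 fold change -0.93 ± 0.11). Xrcc6 (-0.59 ± 0.10) and Prkdc (-0.51 ± 0.10) were also the 2 genes of end joining that fell at day 1. Lig4, the ligase of the final step, rose, with 10.2, 11.3, 6.82 and 11.1 CPM in exposed day 5 libraries, against 8.44, 7.62, 7.21 and 6.69 CPM in uninfected day 5 libraries (log2 fold change 0.40 ± 0.14, adjusted p = 0.0201). Replicate 3 did not share the increase. Xrcc4, the scaffold that stabilises the ligase, averaged 11.4 ± 1.60 CPM in exposed and 12.4 ± 0.948 CPM in uninfected cells, with overlapping libraries (log2 fold change -0.12 ± 0.11, adjusted p = 0.355, and 0.0453 with library totals alone). The Lig4 call was lost with library totals alone (adjusted p = 0.0587), in the fit on day 5 libraries alone (0.0638) and without any 1 of 4 single libraries, exposed replicate 2 or 4 or uninfected replicate 3 or 4 of day 5. The first of 2 RefSeq entries for the 250 bases before its start (chr8:9977681-9977930 on the minus strand) held none of the searched letters and was 70.0% G and C, against 54.4% for Fanci and Trp53bp1 and 55.2% for Rad51ap1.
Lig4: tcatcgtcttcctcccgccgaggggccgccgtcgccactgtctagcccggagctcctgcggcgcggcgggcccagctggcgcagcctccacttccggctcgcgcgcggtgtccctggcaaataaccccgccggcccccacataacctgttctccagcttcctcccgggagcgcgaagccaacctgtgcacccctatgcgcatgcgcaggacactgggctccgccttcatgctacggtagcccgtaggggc

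The 3 genes of single-strand break and excision repair moved in both directions at day 5. Parp1, the sensor of strand breaks, had 44.9, 32.3, 38 and 33.4 CPM in exposed day 5 libraries, against 74.5, 75.9, 66.9 and 60.0 CPM in uninfected day 5 libraries (log2 fold change -0.90 ± 0.10, adjusted p = 3.80e-07), and fell by 0.32 ± 0.10 at day 1, a call lost without any 1 of 5 single libraries. Xrcc1, the scaffold that PARP1 recruits, had 38.4, 26.2, 37.7 and 29.3 CPM in exposed day 5 and 40.8, 42.8, 40.0 and 36.8 CPM in uninfected day 5 libraries, where replicates 1 and 3 overlapped the uninfected range (log2 fold change -0.29 ± 0.11, adjusted p = 0.0320). Ercc1, a subunit of the nuclease that cuts beside bulky lesions, had 11.8, 11.3, 12.9 and 12.7 CPM in exposed day 5 and 11.9, 9.87, 9.70 and 9.16 CPM in uninfected day 5 libraries (log2 fold change 0.26 ± 0.09, adjusted p = 0.0166). Uninfected replicate 1 lay within the exposed range. The Ercc1 call was lost with library totals alone, on day 5 libraries alone and without uninfected day 5 replicate 3 or 4, and the Xrcc1 call on day 5 libraries alone and without any 1 of 5 single libraries.

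Set side by side, S-phase-linked repair had 19 of 19 genes lower at day 5, damage signalling 7 of 9, end joining 3 of 5 and single-strand break and excision repair 2 of 3. The median log2 fold changes were -1.70, -0.64, -0.48 and -0.29 in that order, and 17 of the 19 S-phase-linked genes lay below the lowest end joining gene, Xrcc6, and 14 of 19 below the lowest damage signalling gene, Chek1. At day 1 only 5 of 19 lay below the lowest end joining gene and 7 of 19 below the lowest damage signalling gene. At day 1 the medians of -0.48, -0.39, -0.29 and -0.11 were closer together, with 7 of 19, 6 of 9, 2 of 5 and 1 of 3 genes lower. The 7 S-phase-linked calls at day 1 became 18 on the day 1 libraries alone, 14 without exposed day 5 replicate 2, 13 without exposed day 5 replicate 1, and 3 without exposed day 1 replicate 1 or 4 or uninfected day 1 replicate 4. A separate list of 26 S-phase genes (replication factors such as Mcm7 and Cdt1) had 26 lower and a median of -1.80 at day 5, and 11 lower and a median of -0.51 at day 1. The 18 genes of G2 and mitosis had 18 lower with a median of -2.06 at day 5, and 8 lower with a median of -0.51 at day 1. In further genes of the same routes, described below, the day 5 medians were closer together. They were -0.48 for 21 genes of homologous recombination and -0.67 for 10 of the Fanconi pathway. For 16 genes of checkpoint and chromatin signalling the median was -0.67, and for 10 of end joining -0.37. The gap between the class medians thus holds for the members listed. Whether the classes differ beyond the choice of their members was not tested.

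**Figure D3:**
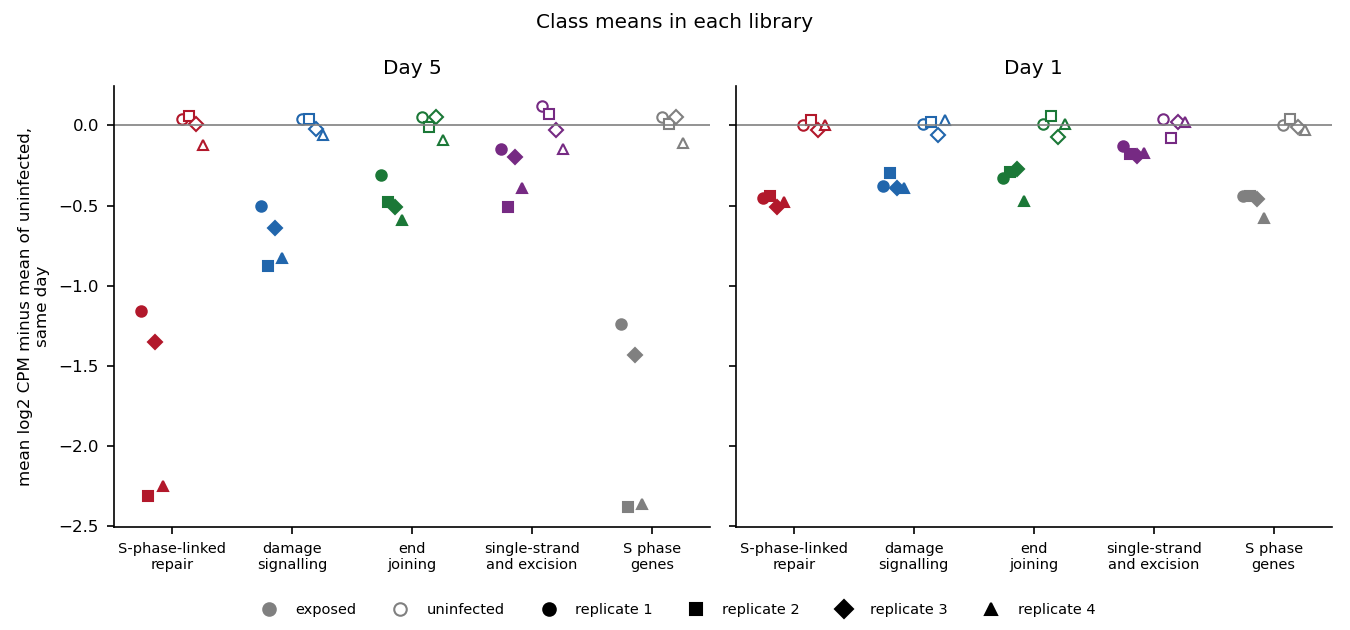
Mean log2 CPM of each class of repair genes and of 26 S-phase genes in every library, minus the mean of the uninfected libraries of that day, at day 5 (left) and day 1 (right). Filled points are exposed and open points uninfected libraries, and shapes mark replicates 1 to 4; at day 5 exposed replicates 2 and 4 lie lower than 1 and 3 for S-phase-linked repair and for S-phase genes.

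The depth of the fall at day 5 differed between exposed cultures. The mean of the 19 S-phase-linked genes in exposed replicates 1 to 4 was -1.16, -2.31, -1.35 and -2.25 on the log2 scale relative to uninfected day 5 cells, and that of the 26 S-phase genes was -1.24, -2.38, -1.43 and -2.36. In both lists replicates 2 and 4 were about a further log2 unit down. The means were -0.50, -0.88, -0.64 and -0.83 for damage signalling and -0.31, -0.48, -0.51 and -0.59 for end joining, so that the exposed libraries of these classes stood closer together. At day 1 the S-phase-linked mean was -0.45, -0.44, -0.51 and -0.48, with no such division.

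Gene by gene, replicates 1 and 3 were both above replicates 2 and 4 in exposed day 5 cells for 17 of 19 S-phase-linked genes, 5 of 9 damage signalling genes, 3 of 5 end joining genes and 2 of 3 of the remaining class. The share of all genes with this order is not given here. The highest exposed day 5 library exceeded the lowest by a median of 2.67 times for S-phase-linked genes, against 1.43 times for damage signalling and 1.46 times for end joining. In uninfected day 5 cells these medians were 1.21, 1.17 and 1.19 times. The files of exposed day 5 replicates 2 and 3 carry another series of library codes than the rest. Of these, replicate 2 was among the low libraries and replicate 3 was not. What the codes mean is not stated, and whether they have a part in the division was not tested. All 19 S-phase-linked genes were called lower at day 5 with any 1 library left out and without replicates 2 and 3 together.

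**Figure D4:**
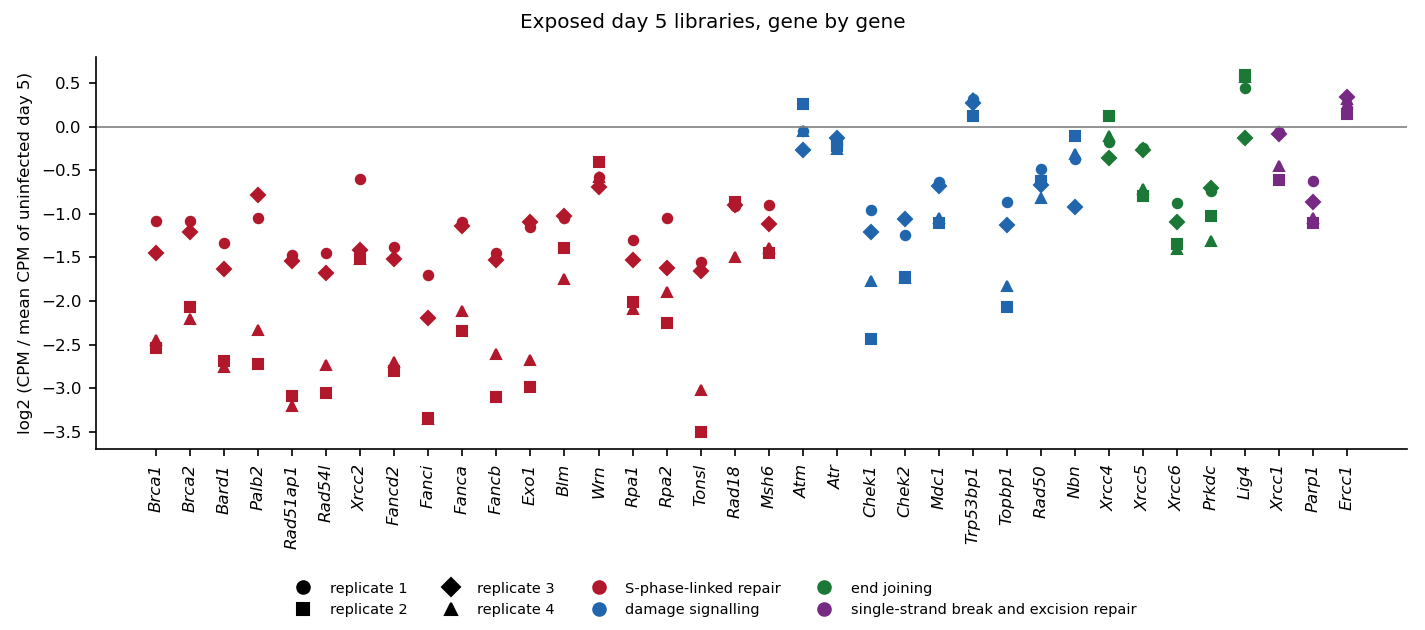
Log2 ratio of CPM in each exposed day 5 library to the mean of uninfected day 5 libraries, for each of the 36 genes, with shapes for replicates 1 to 4 and colours for the class. In most S-phase-linked genes replicates 2 and 4 lie well below 1 and 3, while the points of Wrn, Atr, Trp53bp1 and Ercc1 lie close together.

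The difference between the day 5 effect and the day 1 effect was tested by an interaction term. It was negative, a larger fall or smaller rise at day 5, for 27 of the 36 genes and positive for 4, where 19.5% and 16.4% of all genes were called. All 19 S-phase-linked genes were among the 27, from -1.83 ± 0.35 for Fanci and -1.81 ± 0.40 for Rad51ap1 to -0.30 ± 0.11 for Wrn. The 4 positive genes were Lig4 (0.54 ± 0.20), Atm (0.52 ± 0.14), Ercc1 (0.37 ± 0.13) and Trp53bp1 (0.32 ± 0.11). For Atr, Nbn, Xrcc4, Xrcc5 and Xrcc1 no change of the effect was called. In the simulated counts described below, the interaction test called 16.4% of genes changed by 0.5 on the log2 scale, so small changes can be missed. With library totals alone, which moved the median of all genes in the interaction to -0.12 from -0.04, 1 gene was called positive. Calls near the threshold were not stable to leaving out 1 library: Exo1 lost its call without any 1 of 13 libraries, Lig4 and Wrn of 11, Mdc1 of 10, Prkdc and Trp53bp1 of 8, Ercc1 of 4 and Rad50 of 3, whereas the calls of Atm and of the other 17 S-phase-linked genes were not lost in these fits. With every gene with at least 1 read kept, the S-phase-linked genes Brca1 (adjusted p = 0.0736), Palb2 (0.0591), Exo1 (0.140) and Wrn (0.247) lost the call, and DESeq2 did not call Exo1 (0.0533) or Wrn (0.0817). With 1 library left out, the positive genes numbered 1 (without uninfected day 1 replicate 1 or uninfected day 5 replicate 3 or 4) to 4.

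The 2 days were also compared within exposed and within uninfected cells. In exposed day 5 against exposed day 1 cells 31 of the 36 genes were lower and 2 higher, where 25.2% and 25.6% of all genes were called, and the median was -1.05. The 2 higher genes were Lig4 (0.35 ± 0.14) and Trp53bp1 (0.22 ± 0.08), both of which lost the call with library totals alone and without exposed day 1 replicate 1 or 3 or exposed day 5 replicate 1 or 4. In uninfected day 5 against uninfected day 1 cells 9 genes were lower and 0 higher, where 8.91% and 10.8% of all genes were called, and the median was -0.33. By edgeR 14 genes were lower and 0 higher at an unadjusted p under 0.05, and DESeq2 called 13 lower and 0 higher. How many of all genes passed in these ways or in the fits that follow is not given here, so 8.91% is no baseline for them. On the 8 uninfected libraries alone 27 genes were called lower, and with single libraries left out the number lay between 5 (without uninfected day 5 replicate 4) and 14 (without exposed day 5 replicate 1 or 2).

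The 9 genes that fell over time in uninfected cells were 5 of damage signalling (Atm, Atr, Mdc1, Rad50 and Nbn), Xrcc6, Parp1, Xrcc1 and Msh6, the last being the 1 of 19 S-phase-linked genes called by edgeR over all libraries. Msh6 lost the call with library totals alone (adjusted p = 0.0518) and without any 1 of 3 single libraries, while DESeq2 also called Brca2 (0.0161) and Fanca (0.0219). Parp1 lost it without any 1 of 5 single libraries, and Xrcc1 and Xrcc6 each without either of 2. Atr lost it without uninfected day 1 replicate 4 and with every gene with at least 1 read kept (edgeR adjusted p = 0.0787). The log2 changes of the 9 genes ran from -0.52 ± 0.10 for Atm to -0.24 ± 0.07 for Atr. Tonsl (-0.57 ± 0.28), Fanca (-0.54 ± 0.20) and Brca2 (-0.53 ± 0.18) lay below Atm but were not called by edgeR over all libraries. On the uninfected libraries alone edgeR called each of them (adjusted p at most 3.16e-05). The class medians were close, with -0.33 for S-phase-linked repair and -0.40 for damage signalling. The calls thus do not set these classes apart. Brca1 stood at 71.1, 73.9, 65.3 and 59.1 CPM in uninfected day 5 libraries, all below its 91.4 to 96.6 CPM in uninfected day 1 libraries, with a change of -0.47 ± 0.22 that did not pass the test (adjusted p = 0.158).

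Levels of different genes were compared per kilobase of exon (RPKM), with exon lengths from GENCODE M21. In uninfected day 5 cells the highest levels were 25.4 ± 1.30 RPKM for Rpa1, 15.5 ± 1.17 for Topbp1, 15.4 ± 1.19 for Rpa2 and 14.6 ± 0.508 for Rad51ap1 (SD, n = 4), and beyond Rpa1 these neighbours do not differ by more than their spread. The lowest were Atr with 1.19 ± 0.0223 RPKM, Trp53bp1 with 1.23 ± 0.0627 and Lig4 with 1.44 ± 0.142. These values rest on union exon lengths, which were 23629 bases for Atr, 14164 for Trp53bp1 and 5202 for Lig4. Before division by length, Atr had 28.1 and Trp53bp1 17.4 CPM in uninfected day 5 cells, above Palb2 with 12.9 CPM (1.75 RPKM). Lig4 had 7.49 CPM there, below Palb2. Whether the order by RPKM holds with the lengths of the transcripts these cells make was not tested. In exposed day 5 cells the order was another: Nbn with 7.85 ± 1.74 RPKM, Rpa1 with 7.81 ± 2.08 and Parp1 with 7.02 ± 1.08 were highest and within each other's spread. Palb2 with 0.623 ± 0.373, Exo1 with 0.776 ± 0.477 and Brca2 with 0.810 ± 0.314 had the lowest means. Fanci (0.830), Bard1 (0.835), Xrcc2 (0.840) and Prkdc (0.861) lay within the spread of these 3 genes. Trp53bp1 (1.48 ± 0.0941 RPKM) and Lig4 (1.90 ± 0.400) stood above Fanci (0.830 ± 0.466) in exposed day 5 cells, and below its 4.59 ± 0.518 RPKM in uninfected day 5 cells.

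A further 102 genes of the same pathways had 62 lower and 12 higher at day 5 and a median of -0.40, and 19 lower and 12 higher at day 1 and a median of -0.10. Of all genes tested, 28.4% were lower and 28.6% higher at day 5, and 10.5% lower and 13.4% higher at day 1. Homologous recombination had 16 of 21 lower and 1 higher at day 5, among them Brip1, a helicase that binds BRCA1 (-1.87 ± 0.17), and Mre11a, the nuclease of the RAD50 complex (-0.92 ± 0.07). The Fanconi pathway had 8 of 10 lower, including Usp1, which removes ubiquitin from FANCD2 (-1.11 ± 0.09), and checkpoint and chromatin signalling 12 of 16, including Tipin, a fork protection factor (-1.82 ± 0.16), and Ppm1d, a phosphatase that ends checkpoint signalling (-1.09 ± 0.08). Mismatch repair had 4 of 5 lower.

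The other routes were mixed at day 5, where 28.4% of all genes were lower and 28.6% higher. The remaining end joining genes had 6 of 10 lower and 3 higher, the higher ones including Dclre1c, the nuclease Artemis that opens hairpin ends (0.83 ± 0.09 at day 5 and 0.52 ± 0.09 at day 1), and Aptx, which removes stalled adenylate groups (0.54 ± 0.09). Base excision repair had 11 of 17 lower and 4 higher: Fen1, the flap nuclease shared with replication, fell by 2.06 ± 0.13, and Parp3 rose by 1.00 ± 0.08. Nucleotide excision repair was nearest to all genes, with 2 of 15 lower, 4 higher and a median of -0.07. Its most changed gene, Ercc6, the transcription-coupled repair factor, rose by 1.35 ± 0.10, while Ddb2, a damage recognition factor and p53 target, fell by 0.84 ± 0.22. Translesion synthesis and direct reversal had 3 of 8 lower and 0 higher by edgeR and by DESeq2, also at an unadjusted p under 0.05, with Polh, the polymerase that bypasses ultraviolet lesions, at -1.54 ± 0.13.

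Of 15 p53 target genes, 5 were higher and 6 lower at day 5, beside 28.6% and 28.4% of all genes, and 6 were higher and 0 lower by edgeR at day 1 (0 lower also by DESeq2 and at an unadjusted p under 0.05), beside 13.4% and 10.5% of all genes. Fas, a death receptor, rose by 2.21 ± 0.13 at day 5 and 1.69 ± 0.13 at day 1, Gadd45a, a growth arrest gene, by 1.25 ± 0.11 and 0.55 ± 0.11, and Sesn2, a stress-induced sestrin, by 1.5 ± 0.18 at day 5. Btg2, an antiproliferative gene, fell by 1.10 ± 0.09 at day 5 and rose by 0.67 ± 0.09 at day 1.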

How the data were processed

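Polyadenylated RNA of 16 cultures had been sequenced. Per the submitters' processing notes, STAR and GRCm39 were used, with versions and annotation release not given in the sources used here. The authors deposited raw counts per gene for each library, and their file names call them reverse-strand. Symbols were matched by Ensembl identifier without version for 52083 of 55359 genes, and the others held 0.449% of counts. How reads shared by similar genes were assigned is not stated.

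Genes passing edgeR's filterByExpr (17190) were scaled by TMM and fitted with 1 robust quasi-likelihood model over all 16 libraries, with a mean per group (edgeR 4.0.16, R 4.3.3). The common biological coefficient of variation was 0.149. Two-sided p-values were adjusted by Benjamini-Hochberg over all genes tested and called under 0.05. SE is the log2 fold change over the root of its F statistic. RPKM used union exon lengths from GENCODE M21, an older build. Class means used log2 CPM with a prior count of 2. Counts of libraries differed by more than sampling noise, so all 16 were kept.

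Members, lists and alternatives were chosen with earlier results of these data known. The text may name all 36 members and, of each other list, up to 4 genes with the smallest p in each exposure comparison; some of these are not reported here. Promoters shown are those of the 2 S-phase-linked genes with the lowest and the 2 other genes with the highest day 5 change among genes with a promoter entry. Alternatives were DESeq2 1.42.0, RLE factors, library totals, 2 filters, fits on the compared groups alone, the replicate number as a block, and left-out libraries. On simulated counts for 17190 genes, edgeR called 65.7%, 95.5% and 98.5% of genes changed by 0.5, 1 and 2 on the log2 scale at day 5, and 40.3%, 91% and 100% at day 1. For the interaction it called 16.4%, 80.6% and 98.5%. The simulation gave every group the same spread per gene, so it left out the wider spread of exposed day 5 libraries. The changed genes were drawn at random anew for each comparison. The gap between the days is therefore no measure of power by day. Figures were drawn with matplotlib 3.10.9.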

Additional observations from a re-analysis of the deposited data

Results flagged for a closer look

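The effect of exposure differed between day 5 and day 1, by the interaction test of edgeR's model, for 31 of the 36 genes. Of all genes tested, 19.5% were called negative and 16.4% positive. As described above, Exo1, Wrn, Lig4, Mdc1, Prkdc, Trp53bp1, Ercc1 and Rad50 lost the call in some fits with 1 library left out. The values are log2 fold changes at day 5 minus those at day 1. In homologous recombination they were -1.81 for Rad51ap1, -1.55 for Rad54l, -1.49 for Bard1, -1.36 for Palb2, -1.05 for Brca1, -0.98 for Brca2 and -0.84 for Xrcc2. In the Fanconi pathway they were -1.83 for Fanci, -1.54 for Fancb, -1.35 for Fancd2 and -1.09 for Fanca, and among resection genes -1.12 for Exo1, -0.77 for Blm and -0.30 for Wrn. Fork and post-replicative genes had -1.65 for Tonsl, -1.29 for Rpa2, -1.10 for Rpa1, -0.75 for Msh6 and -0.67 for Rad18.

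In damage signalling the differences were -1.03 for Chek1, -1.02 for Chek2, -1 for Topbp1, -0.39 for Mdc1, -0.34 for Rad50, 0.32 for Trp53bp1 and 0.52 for Atm. In end joining they were -0.57 for Xrcc6, -0.42 for Prkdc and 0.54 for Lig4, and in the remaining class -0.58 for Parp1 and 0.37 for Ercc1.

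Single libraries stood apart from the other 3 of their group in 9 of 144 groups of values, and chance gives about 1 in 20. In exposed day 5 cells, Xrcc2 was high in replicate 1 (6.67 CPM, others 3.52 to 3.79) and Rad18 low in replicate 4 (16.8 CPM, others 25.3 to 26.1). In exposed day 1 cells, Mdc1 was low in replicate 1 (49.1 CPM, others 52.0 to 52.6) and Xrcc4 low in replicate 4 (9.25 CPM, others 11.1 to 11.4). Replicate 4 of uninfected day 5 was apart for 3 genes, low for Msh6 (42.4 CPM, others 50.6 to 52.2) and Xrcc5 (11.7 CPM, others 15.6 to 15.8) and high for Wrn (24.0 CPM, others 22.4 to 22.7). Replicate 2 of uninfected day 1 was high for Palb2 (16.8 CPM, others 14.2 to 14.6) and Exo1 (27.4 CPM, others 25.4 to 25.7).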

How the results depend on the processing

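The 31 lower calls at day 5 stayed between 29 and 32 under every alternative run, and the 19 S-phase-linked ones at 19. The lower calls of the interaction (27) and of exposed day 5 against day 1 (31) stayed within 1.5 times. Fits on the compared groups alone gave 30 lower (18 S-phase-linked) at day 1 and 27 in uninfected cells over time, 1 higher at day 5 and 0 higher in exposed cells over time; no such fit exists for the interaction. Library totals alone gave 0 higher at day 5, 1 for the interaction and 0 for exposed cells over time. With every gene with at least 1 read kept, S-phase-linked calls at day 1 numbered 4, and higher calls 2 for the interaction and 1 for exposed cells over time. Without exposed day 5 replicates 2 and 3, whose files carry other library codes, 26 genes (15 S-phase-linked) were lower at day 1 and 15 in uninfected cells over time. With 1 library left out, lower calls ranged from 9 to 25 at day 1, from 3 to 14 for S-phase-linked genes at day 1, and from 5 to 14 in uninfected cells over time. Higher calls then ranged from 1 to 3 at day 5, from 1 to 4 for the interaction and from 0 to 2 for exposed cells over time. The share of all genes called under each alternative is not given here. The cause of these differences was not tested.

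Same-numbered replicates did not vary together: over 24 pairs the correlation of their deviations lay between -0.15 and 0.15, with 3 above 0.1, and in 7 of the 24 a library matched its own number best among the 4 of the other group, where chance gives 1 in 4. With the replicate block 16 genes were lower at day 1 and 31 at day 5, 1 was higher in exposed cells over time, and Lig4 lost its interaction call (0.52, adjusted p = 0.0516).

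Signs turned only where the change was near 0 and not called, in 36 of 4284 refits of single genes. For Atm at day 5 the log2 value was 0.00 with DESeq2 and RLE factors, 0.02 with a filter of 1 CPM in 4 libraries, and -0.11 to 0.06 with a library left out. For Atm in exposed cells over time it was 0.02 with DESeq2, RLE factors and that filter, 0.01 with every gene kept, and -0.11 to 0.07 with a library left out. The interaction of Atr was 0.04 with DESeq2 and RLE factors, 0.03 with every gene kept, 0.01 with the CPM filter, and -0.03 to 0.03 with a library left out. With library totals the interaction was -0.01 for Nbn and -0.05 for Xrcc4, and the change in exposed cells over time -0.03 for Xrcc4. Left-out libraries gave -0.03 to 0.22 for the Nbn interaction, -0.06 to 0.11 for that of Xrcc4, and -0.00 to 0.16 in exposed and -0.00 to 0.10 in uninfected cells for Xrcc4 over time.

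Each of the 36 genes had at least 102 counts in every library, and whether depth limits the smaller changes was not tested. All replicates come from 1 cell line.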
